A study of Mus musculus with 9 samples.

Results

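The miRNAs described here are miR-129-5p, miR-128-3p, miR-9-5p, miR-124-3p, miR-153-3p, miR-184-3p and miR-204-5p. These 7 mature miRNAs were chosen by name because they are known from neurons and from islet cells, and reads from all precursor copies of each were merged. They are 7 of the miRNAs in a series of 9 mouse small RNA-seq libraries, in which 376 features (266 miRNAs at their annotated 5′ start and 110 at a shifted start) carried a name in the study's tables of highly expressed miRNAs. The table for MIN6 cells named 6 of the 7 miRNAs and the table for liver named 0 of the 7. miR-204-5p was named in neither table and was located separately, as described below.

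The libraries were made in 3 ways. MIN6 is a mouse insulinoma line widely used as a model of the pancreatic beta cell, and all MIN6 cells were grown in DMEM with 25 mM glucose and heat-inactivated fetal bovine serum. TS-MIN6 denotes 3 libraries made with the Illumina TruSeq kit, v1.5-MIN6 denotes 3 made with the older Illumina v1.5 kit (both read on a GAIIx), and NF-MIN6 is 1 library made with the Bioo Scientific NEXTflex V2 kit, which carries random bases at the adapter ends, and read on a HiSeq. TS-liver and NF-liver are 1 TruSeq and 1 NEXTflex library, both read on a HiSeq, of the same liver RNA from 1 female C57BL/6J mouse. Per the study's methods this animal was 9 weeks old when obtained, had received saline as a control of another experiment and was fasted overnight. MIN6 is a single tumour-derived line and whole liver is a mixture of hepatocytes with blood, endothelial and stromal cells. The study's text calls the replicates biological, but the labels do not say whether they came from separate cultures, so p-values measure only the spread between these libraries, which may be technical. Per the methods RNA was extracted with TRIzol at one facility and with a Norgen column kit at the other, and the liver RNA with the latter. In the TruSeq comparison of MIN6 with liver, tissue cannot be told apart from sequencer, facility, RNA extraction and run.

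A mature miRNA is cut from one arm of a hairpin precursor (the 5p or 3p arm) and guides Argonaute proteins to messenger RNAs that pair with its seed, bases 2 to 8 from its 5′ end. Beta cells share much of their secretory machinery and several transcription factors with neurons, and some miRNAs best known from brain are also found in islets. miR-124 and miR-9 are classic miRNAs of neuronal differentiation, and in beta cell lines both have been linked to genes of insulin secretion. miR-128, miR-129 and miR-153 are enriched in brain. miR-184 is abundant in islets, where it is known to repress Argonaute2, and miR-204 is known in islets as a repressor of the insulin gene activator MafA. Liver is dominated by hepatocytes, whose hallmark miRNA is miR-122.

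The mature sequences are given so that members can be told apart by seed and length. They are the RefSeq sequences on GRCm38.p6 (written 5′ to 3′, seed in capitals), found for 6 of the 7 miRNAs. miR-124-3p was not in the sequence table used.
miR-129-5p: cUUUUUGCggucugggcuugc
miR-128-3p: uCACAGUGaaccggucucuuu
miR-9-5p: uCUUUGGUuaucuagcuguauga
miR-153-3p: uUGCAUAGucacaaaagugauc
miR-184-3p: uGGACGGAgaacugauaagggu
miR-204-5p: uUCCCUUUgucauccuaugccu

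The 6 seeds all differ, so these are not members of one seed family. Of them only the miR-204-5p seed occurs in other mature miRNAs of the table, namely 2 (miR-211-5p and miR-7670-3p). GC content ran from 34.8% in miR-9-5p to 57.1% in miR-129-5p. On GRCm38.p6 miR-129-5p lies at chr2:94241419-94241439 (minus strand, in an intron of the lincRNA gene Mir670hg) and chr6:29022624-29022644 (plus strand, in an exon of the lincRNA gene Gm3294). miR-128-3p lies at chr1:128202404-128202424 (plus, intron of R3hdm1) and chr9:112118644-112118664 (minus, intron of Arpp21). miR-9-5p has 3 copies on the plus strand, at chr3:88215613-88215635 (intron of Gm3764), chr7:79505279-79505301 (intron of Mir9-3hg) and chr13:83738821-83738843 (exon of C130071C03Rik), and all 3 hosts are lincRNA genes. miR-153-3p lies at chr12:117250860-117250881 (plus, intron of Ptprn2, which encodes a dense-core vesicle protein and islet autoantigen, and on the opposite strand an intron of the antisense gene Gm5441). miR-204-5p lies at chr19:22750610-22750631 (plus, intron of Trpm3, a cation channel gene), and miR-184-3p at chr9:89802263-89802284 (minus) overlaps no other annotated gene.

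The deposited alignments are on the mm9 build and carry positions without names, so each miRNA was located by the value of its table entry. The 6 named miRNAs were found at 12 5′ ends. In mm9 these are chr6:28972624 (plus) and chr2:94081596 (minus) for miR-129-5p, chr1:130098981 (plus) and chr9:112021168 (minus) for miR-128-3p, chr13:83878426, chr3:88019535 and chr7:86650165 (plus) for miR-9-5p, chr14:65209546, chr2:180628788 and chr3:17695723 (plus) for miR-124-3p, chr12:118489333 (plus) for miR-153-3p and chr9:89697122 (minus) for miR-184-3p. The mismatches recorded in the alignments gave a check that uses no abundance. At each of the 9 positions of the 5 named miRNAs with a known sequence, between 61 and 67 kinds of mismatch were recorded, and 0 of them gave a substituted letter that would equal the mature sequence at that base, as the right sequence requires. For miR-204-5p, 804 5′ ends of the chromosome were tried and 302 had no mismatch in conflict with its sequence. The 5′ end chr19:22825100 (plus) had the most kinds of mismatch without conflict (16, with 1163.5 reads over the 9 libraries and a commonest length of 22 nt). Its distances in mm9 to the named 5′ ends of miR-107-3p (12070112 nt) and miR-146b-5p (23592180 nt) equalled those in RefSeq, and that to miR-101b-3p differed by 1 nt. The distances to miR-192-5p, miR-194-5p and miR-194-2-3p, which lie on the other side, each differed by -74490 nt, for a reason not tested (the builds are not the same). Its highest level, 38.0 RPMM (the unit of level defined in the next paragraph), lies under the lowest maximum of any miRNA named in the MIN6 table, 39.9.

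Levels are given as reads per 1000000 mapped reads (RPMM) that start at the annotated 5′ end. A read spans a whole miRNA, so no length correction was needed, but the kits capture different miRNAs with different efficiency and an order of levels is an order of reads. The deposited counts summed to 6.92e+06 in the shallowest library and 2.56e+07 in the deepest, and 3 reads, taken as the limit that a count of 0 allows, corresponded to 0.117 RPMM in NF-MIN6, 0.182 in TS-liver and 0.209 in NF-liver. The tissue labels were checked with marker miRNAs. miR-122-5p, the hepatocyte miRNA, stood at 17244 RPMM in TS-liver and 532452 in NF-liver against 0.151 to 0.581 in TS-MIN6, 1.73 to 2.38 in v1.5-MIN6 and 128 in NF-MIN6. miR-375-3p, the defining miRNA of endocrine islet cells, ranged from 64950 to 186331 RPMM over the 7 MIN6 libraries against 40.0 in TS-liver and 26.7 in NF-liver. Summed over the 2 beta cell markers the MIN6 libraries held 77667 to 313883 RPMM and the livers 46.6 (TruSeq) and 705 (NEXTflex), the latter mostly miR-7a-5p. The 4 endothelial and stromal markers summed to 26.0 to 221 RPMM in MIN6 and to 10633 and 4192 in the livers, and the 2 of 5 blood markers in the tables (miR-451 and miR-486-5p) to 2.26 to 37.2 in MIN6 and to 6411 and 1703. The 3 hepatocyte markers summed to 778 to 1524 RPMM in MIN6, mostly from miR-192-5p and miR-194-5p.

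miR-128-3p stood at 1063, 1080 and 1155 RPMM in the TS-MIN6 libraries, at 558, 544 and 524 in v1.5-MIN6 and at 2165 in NF-MIN6. In liver it stood at 30.3 RPMM with TruSeq (500 reads) and at 10.3 with NEXTflex (148 reads). The lowest MIN6 library was therefore above the higher liver library, and the 3 kits did not overlap in MIN6.

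miR-129-5p stood at 876, 892 and 870 RPMM in TS-MIN6, at 1757, 1788 and 1889 in v1.5-MIN6 and at 1664 in NF-MIN6. In liver it stood at 2.24 RPMM with TruSeq (37 reads) and at 19.6 with NEXTflex (282 reads). It was the only one of the 7 whose NEXTflex liver level exceeded the TruSeq liver level beyond counting error, and 274 of those 282 reads were a single form with 3 untemplated bases, described below.

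miR-9-5p stood at 208, 230 and 221 RPMM in TS-MIN6, at 669, 681 and 677 in v1.5-MIN6 and at 1688 in NF-MIN6. The liver levels were 1.92 RPMM with TruSeq (31.6 reads, since reads with several alignments were split) and 0.487 with NEXTflex (7 reads). Among the MIN6 libraries NEXTflex was highest and TruSeq lowest.

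miR-184-3p stood at 545, 622 and 614 RPMM in TS-MIN6 and at 1959, 1940 and 2080 in v1.5-MIN6, but at 206 in NF-MIN6. The liver levels were 4.61 RPMM with TruSeq (76 reads) and 4.31 with NEXTflex (62 reads). Here v1.5 was highest and NEXTflex lowest in MIN6.

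miR-124-3p stood at 146, 135 and 137 RPMM in TS-MIN6, at 385, 461 and 532 in v1.5-MIN6 and at 84.9 in NF-MIN6. It had 0 reads in TS-liver and 3 reads (0.209 RPMM) in NF-liver, both at or under the limit that a count of 0 allows. The spread over the v1.5 libraries, a coefficient of variation of 16.0%, was the widest of the 7 in any replicated group.

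miR-153-3p stood at 419, 470 and 544 RPMM in TS-MIN6, at 417, 421 and 459 in v1.5-MIN6 and at 179 in NF-MIN6. It had 0 reads in both liver libraries. TruSeq and v1.5 overlapped in MIN6, which was so for none of the other 6.

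miR-204-5p stood at 37.2, 37.5 and 38.0 RPMM in TS-MIN6 and at 4.84, 3.85 and 4.52 in v1.5-MIN6, with 0 reads in NF-MIN6. The liver level was 2.97 RPMM with TruSeq (49 reads), and NEXTflex liver had 0 reads. It was thus the least abundant of the 7 in MIN6 with each kit, and it was read with TruSeq and v1.5 only.

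**Figure D1:**
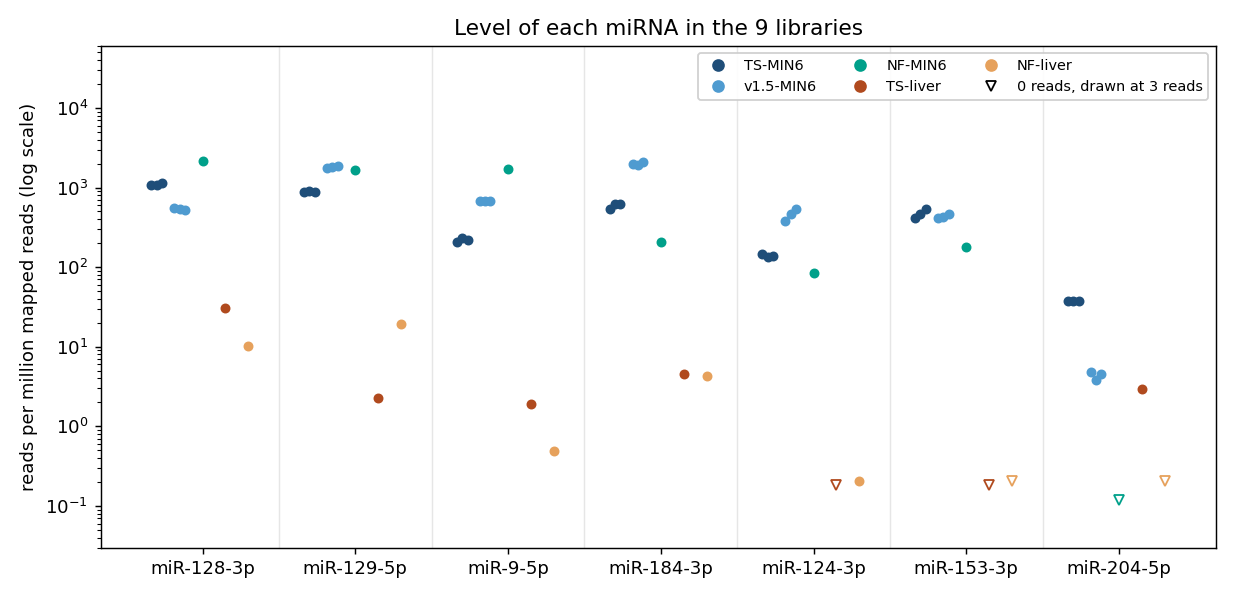
Level of each of the 7 miRNAs in each of the 9 libraries, as reads per 1000000 mapped reads on a log scale. Each point is 1 library, coloured by group, and open triangles mark libraries with 0 reads, drawn at the level of 3 reads. For the first 6 miRNAs all MIN6 points lie above both liver points, while miR-204-5p lies lowest in MIN6 and is at 0 in both NEXTflex libraries.

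The order of levels in MIN6 changed with the kit. With TruSeq it was miR-128-3p (1099 ± 49.2 RPMM, SD, n = 3), miR-129-5p (879 ± 11.4), miR-184-3p (594 ± 42.3), miR-153-3p (478 ± 62.8), miR-9-5p (220 ± 10.99), miR-124-3p (140 ± 5.96) and miR-204-5p (37.5 ± 0.395), and no neighbours overlapped. With v1.5 it was miR-184-3p (1993 ± 75.8 RPMM, SD, n = 3), miR-129-5p (1811 ± 69.1), miR-9-5p (675 ± 5.91), miR-128-3p (542 ± 17.2), miR-124-3p (459 ± 73.6), miR-153-3p (432 ± 23.5) and miR-204-5p (4.41 ± 0.503). There miR-124-3p overlapped both miR-128-3p and miR-153-3p, so these neighbours were not separated. In the single NEXTflex library miR-128-3p, miR-9-5p and miR-129-5p came first, of which miR-9-5p and miR-129-5p had overlapping counting intervals, followed by miR-184-3p, miR-153-3p, miR-124-3p and miR-204-5p. In TS-liver miR-128-3p was highest and miR-184-3p, miR-204-5p, miR-129-5p and miR-9-5p followed with overlapping intervals between neighbours. In NF-liver miR-129-5p, miR-128-3p and miR-184-3p led in that order without overlap, but first place rested on the tailed form of miR-129-5p described below. With exact matches only, NF-liver held 9.73 RPMM of miR-128-3p, 4.31 of miR-184-3p and 0.278 of miR-129-5p. Among the 376 features the 6 named miRNAs held ranks 64 to 188 in TS-MIN6, 54 to 127 in v1.5-MIN6 and 41 to 213 in NF-MIN6.

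The TS-MIN6 level was above the TS-liver level for all 6 named miRNAs. They entered the 376 features through the MIN6 table alone, so this direction was largely fixed by how they were listed, and the differences are given as a description, with no test. The log2 difference was 8.61 ± 0.13 (SE) for miR-129-5p, 7.01 ± 0.15 for miR-184-3p, 6.82 ± 0.14 for miR-9-5p and 5.18 ± 0.11 for miR-128-3p. These come from edgeR's quasi-likelihood fit of the 376 features, whose p-values elsewhere in the text are Benjamini-Hochberg adjusted over those features. In that fit all 9 libraries shared 1 estimate of spread (4 residual degrees of freedom) and the single liver library was assumed to vary like the replicated groups. Against 0 reads in TS-liver, miR-153-3p was at least 2626-fold and miR-124-3p at least 767-fold higher in MIN6, counting 3 reads for the liver. The count of 6 of 6 stands against 69.1% of all 376 features called higher in MIN6. For the reason given, nothing is read from the count or from their median. The median log2 difference of the 6 was 7.81, which stays the same with miR-124-3p and miR-153-3p at their bounds, beside 2.83 over all features. With TMM scaling factors the median of all features was 0.93, and miR-128-3p, miR-9-5p, miR-184-3p and miR-129-5p were higher in MIN6 by 3.29, 4.93, 5.11 and 6.72 on the log2 scale.

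miR-204-5p lay outside the tables and was therefore fitted among all 11795 5′ ends or features that reached 10 RPMM in a library. It reached 10 RPMM in the TS-MIN6 libraries alone, so a level higher there than elsewhere was largely fixed by that filter, and its differences are given as a description, with no test. It was higher in TS-MIN6 than in TS-liver by 3.65 ± 0.21 on the log2 scale, and the ratio was 12.7 when reads were pooled over the 3 TS-MIN6 libraries, with a counting interval of 9.49 to 17.2. TS-liver held 7.92% of the mean TS-MIN6 level of miR-204-5p. That share was 2.76% for miR-128-3p, 0.871% for miR-9-5p, 0.776% for miR-184-3p and 0.255% for miR-129-5p. For comparison, the liver level of the islet miRNA miR-375-3p was 0.0229% of its MIN6 level with TruSeq, lower than any of these shares. Fewer cells with a miRNA and less of it per cell cannot be told apart in such bulk samples.

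The same contrast with NEXTflex had 1 library on each side and so no replicate check. The intervals given are exact binomial ones at 95% and cover counting error only, as reads carry no molecular identifiers. The ratio of NF-MIN6 to NF-liver was 3469 (1683 to 8628) for miR-9-5p, 210 (179 to 249) for miR-128-3p, 84.9 (75.5 to 95.8) for miR-129-5p and 47.9 (37.3 to 62.6) for miR-184-3p. For the last 3 these values depended on 1 read form each, described below, that made up most of the NF-liver reads. Without those forms the ratios were 1662 for miR-128-3p, 2984 for miR-129-5p and 1485 for miR-184-3p, on 11, 8 and 2 NF-liver reads. With exact matches only they were 198 for miR-128-3p, 4815 for miR-129-5p (4 NF-liver reads) and 37.1 for miR-184-3p. For miR-124-3p it was 407 with an interval of 139 to 1975, from 3 liver reads, and miR-153-3p was at least 860-fold higher in MIN6. miR-204-5p had 0 reads on both sides and gives no ratio. All 6 named miRNAs exceeded a 10-fold difference after 1 RPMM was added, as did 50.3% of all 376 features in that direction. Their median log2 ratio was 6.92 beside 3.37 over all features, and here too nothing is read from the count or the median. NF-liver held 2.09% of the NF-MIN6 level for miR-184-3p, 1.18% for miR-129-5p, 0.475% for miR-128-3p, 0.246% for miR-124-3p and 0.0288% for miR-9-5p, beside 0.0411% for miR-375-3p. In the other direction NF-MIN6 held 0.0240% of the NF-liver level of the hepatocyte miRNA miR-122-5p, against 0.00226% with TruSeq. What part reads crossing between libraries play in these values was not tested.

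**Figure D2:**
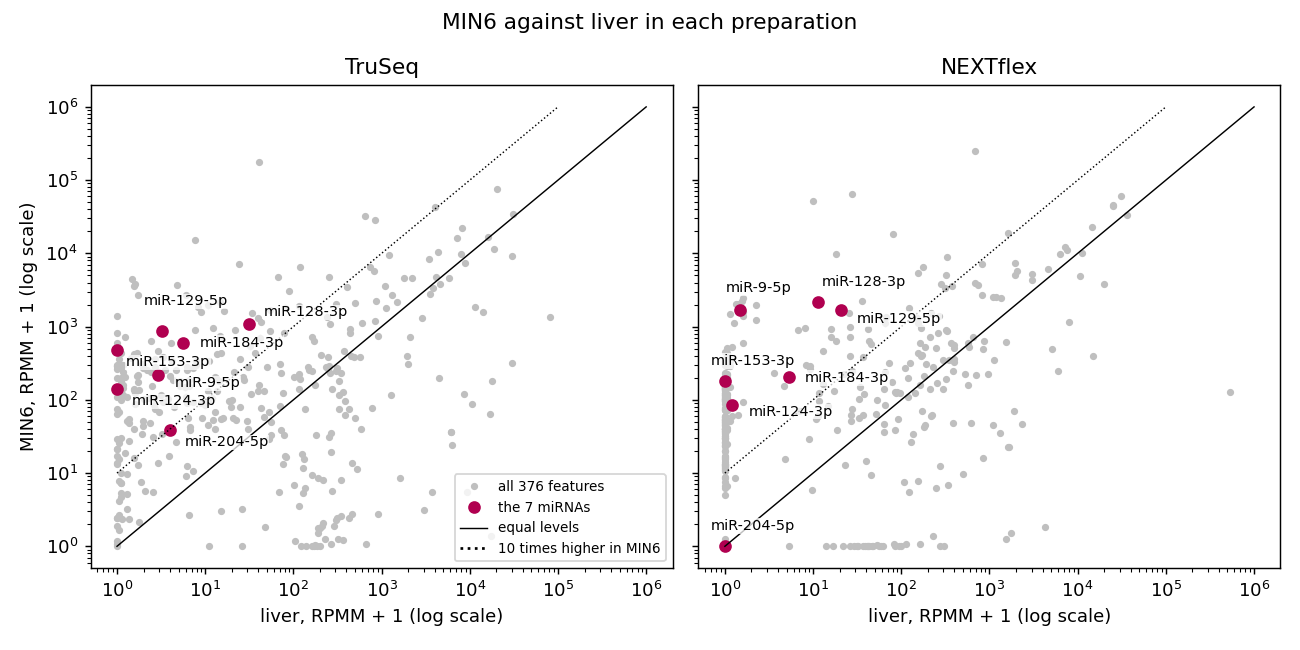
Level in MIN6 (vertical axis) against level in liver (horizontal axis), both as RPMM plus 1 on log scales, with TruSeq on the left (mean of 3 MIN6 libraries, 1 liver library) and NEXTflex on the right (1 library each). Grey points are the 376 features and coloured points the 7 miRNAs. The solid line marks equal levels and the dotted line a 10-fold higher level in MIN6, above which 6 of the coloured points lie in each panel. miR-204-5p lies close to the dotted line with TruSeq and at the origin with NEXTflex.

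For 4 of the 7 miRNAs the difference between MIN6 and liver was called by edgeR as differing between the NEXTflex and the TruSeq libraries. In 3 of the 4 groups compared there is 1 library. Each was assumed to vary like the replicated TruSeq and v1.5 libraries of MIN6. The p-values below thus do not measure any spread between NEXTflex or between liver libraries. With TruSeq the tissues also differ in sequencer, facility and RNA extraction, which cannot be told apart from the kit here. The contrast of the NEXTflex difference minus the TruSeq difference, added after the data had been seen and tested in edgeR's quasi-likelihood fit, was +4.91 ± 0.37 on the log2 scale for miR-9-5p (adjusted p = 7.65e-07) and +2.54 ± 0.15 for miR-128-3p (adjusted p = 8.82e-08). It was -2.20 ± 0.19 for miR-129-5p (adjusted p = 1.85e-06) and -1.43 ± 0.26 for miR-184-3p (adjusted p = 5.68e-04, and 0.0626 with TMM factors). For miR-9-5p and miR-128-3p the difference was thus larger in the NEXTflex libraries, and for miR-129-5p and miR-184-3p smaller. Of all 376 features, 50.5% were called with a positive contrast and 13.3% with a negative one. For features higher in liver a positive contrast can mean a smaller difference, so these are shares of sign. The median of this contrast over all features was +1.19, and +2.07 with TMM factors. With exact matches only the contrast turned to +3.00 for miR-129-5p (edgeR, adjusted p = 1.10e-04) and was -2.37 for miR-184-3p. The commonest form of each miRNA in NF-liver was also removed from all libraries, after the data had been seen. As that form was chosen for its share in NF-liver, its removal lowers that library most and moves the contrast upwards by construction, so the values show only how much of each rests on 1 form. They were +2.91 for miR-129-5p, +3.44 for miR-184-3p, +5.79 for miR-128-3p and +7.18 for miR-9-5p, on 8, 2, 11 and 1 NF-liver reads. miR-124-3p, with 0 and 3 liver reads, was not called (-5.22 ± 2.75, adjusted p = 0.124 in edgeR), and miR-153-3p with 0 reads in both livers could not be estimated.

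Set side by side, the 2 libraries of the same liver RNA differed as follows. NF-liver was 8.73 times TS-liver for miR-129-5p, with a counting interval of 6.19 to 12.7. The ratio was 0.935 (0.658 to 1.32) for miR-184-3p, an interval that includes equality, 0.339 (0.280 to 0.408) for miR-128-3p and 0.254 for miR-9-5p (interval 0.0934 to 0.578, from reads rounded to whole numbers). miR-204-5p was at least 14.3-fold lower in NF-liver. With 1 RPMM added, 3.72% of the 376 features differed more than 10-fold upwards and 14.4% downwards, and 0 of the 6 named miRNAs did. For miR-9-5p, miR-124-3p, miR-153-3p and miR-184-3p both liver levels were too low to reach that limit, so nothing is read from this count. Without the commonest NF-liver form of each, TS-liver was 4.04 times NF-liver for miR-129-5p, 31.4 times for miR-184-3p and 27.5 times for miR-128-3p, so the near-equal levels of miR-184-3p depended on 1 form. The removed form was picked for its share in NF-liver, and 8, 2 and 11 reads remained there.

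Within MIN6 the kits could be compared without a change of tissue. From TruSeq to v1.5, miR-184-3p rose by 1.75 ± 0.06 (log2, SE), miR-124-3p by 1.72 ± 0.11, miR-9-5p by 1.62 ± 0.05 and miR-129-5p by 1.04 ± 0.05, whereas miR-128-3p fell by 1.02 ± 0.05. The adjusted p-values from edgeR were between 1.29e-10 for miR-9-5p and 2.75e-08 for miR-124-3p. miR-153-3p differed by -0.15 ± 0.09 and was not called (edgeR, adjusted p = 0.143). That call depended on scaling, as the difference was -0.43 with TMM factors and -0.80 with DESeq2's size factors, both called. Without TS-MIN6 replicate 1 it was -0.23 and was called as well (edgeR, adjusted p = 0.0194). So 4 of 6 were higher and 1 of 6 lower with v1.5, where 48.9% of all features were higher and 37.2% lower. The median of the 6 was 1.33 beside 0.17 over all features. For miR-204-5p, which entered the fit of 11795 through TS-MIN6 alone, the difference from TruSeq to v1.5 was -3.09 ± 0.13, again with no test.

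From TruSeq to NEXTflex, miR-9-5p was higher by 2.94 ± 0.07 (log2, SE), miR-128-3p by 0.98 ± 0.07 and miR-129-5p by 0.92 ± 0.06, while miR-184-3p fell by 1.53 ± 0.09, miR-153-3p fell by 1.42 ± 0.13 and miR-124-3p fell by 0.72 ± 0.15. All were called by edgeR, with miR-124-3p giving the largest adjusted p of the 6, 0.001. This made 3 of 6 higher and 3 of 6 lower, where 43.1% and 47.9% of all features were higher and lower. NEXTflex over v1.5 gave +2.00 ± 0.07 for miR-128-3p and +1.32 ± 0.07 for miR-9-5p, and -3.27 ± 0.10 for miR-184-3p, -2.43 ± 0.17 for miR-124-3p and -1.27 ± 0.13 for miR-153-3p, all called by edgeR. miR-129-5p was not called (-0.12 ± 0.07, adjusted p = 0.103 in edgeR), and its sign turned under TMM factors (0.34). That is 2 of 6 higher and 3 of 6 lower, where 31.1% and 57.4% of all features were higher and lower. NF-MIN6 had 0 reads of miR-204-5p, which makes it at least 320-fold lower than in TS-MIN6 and at least 37.5-fold lower than in v1.5-MIN6. NF-MIN6 is 1 library and was assumed to vary like the replicated groups. Per the study's text it was made from the RNA of a TruSeq library read on a HiSeq, which is not among the libraries used here. It thus also differed from both others in RNA sample, sequencer, facility, RNA extraction and run, which cannot be told apart from the kit.

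**Figure D3:**
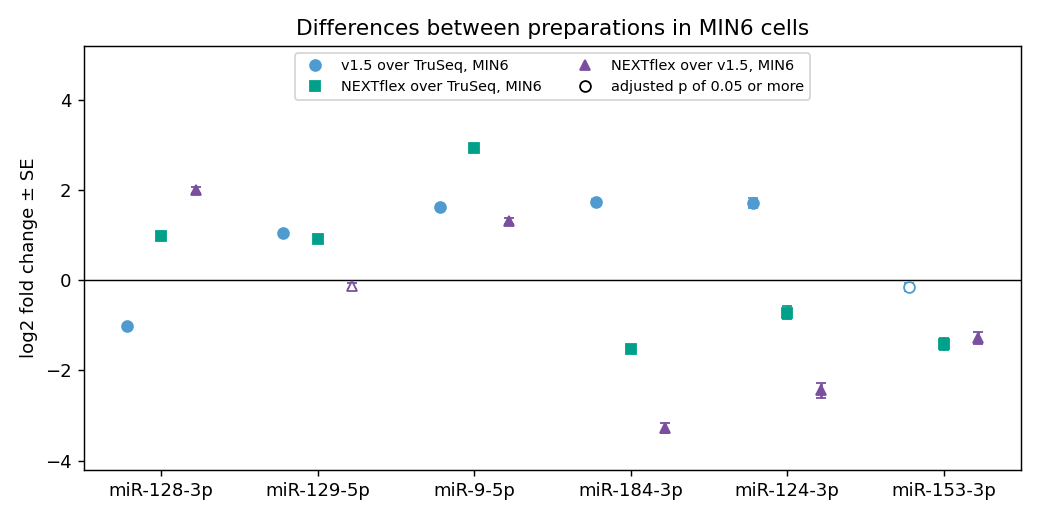
Differences between library preparations in MIN6 cells for the 6 miRNAs named in the tables, as log2 fold change with its standard error on the vertical axis. Circles are v1.5 over TruSeq, squares NEXTflex over TruSeq and triangles NEXTflex over v1.5, and open symbols had an adjusted p of 0.05 or more. miR-184-3p spans the widest range, from 1.75 to -3.27, followed by miR-124-3p, from 1.72 to -2.43, and the 2 open symbols are miR-129-5p and miR-153-3p.

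No kit gave the highest level of every miRNA. The highest kit was v1.5 for miR-129-5p, miR-124-3p and miR-184-3p, NEXTflex for miR-128-3p and miR-9-5p, and TruSeq for miR-153-3p and miR-204-5p. The first place was not separated from the next for miR-129-5p (v1.5 and NEXTflex) and for miR-153-3p (TruSeq and v1.5), neither of which was called in the fit reported above. The highest mean was 9.66 times the lowest for miR-184-3p, 7.67 times for miR-9-5p, 5.41 times for miR-124-3p, 3.99 times for miR-128-3p, 2.66 times for miR-153-3p and 2.06 times for miR-129-5p. Over the 253 annotated miRNAs with reads in all 3 preparations, the median of this ratio was 5.90 and the quartiles 2.92 and 13.3. miR-129-5p and miR-153-3p therefore lay under the lower quartile and none of the 6 above the upper one.

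The 5′ ends of 6 of the 7 were uniform. At least 96.6% of the reads within 5 nt of the annotated start began exactly there for every one of these miRNAs in each library that had reads of it. miR-124-3p was the exception, with 78.4% to 82.5% of its MIN6 reads at the named start, most of the others beginning 1 nt earlier. A start 1 nt earlier moves the seed by 1 base.

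The 3′ ends varied more. In all MIN6 libraries the commonest form of miR-129-5p was the exact 21-nt sequence, with 56.4% to 57.7% of reads in TS-MIN6, 73.5% to 75.8% in v1.5-MIN6 and 58.8% in NF-MIN6. A single untemplated U at its end made up 8.93% to 9.35% of the TS-MIN6 reads, 2.93% to 3.32% of v1.5 and 4.32% of NF-MIN6. miR-124-3p carried such a tail on 14.4% to 16.2% of reads in TS-MIN6, 7.53% to 8.11% in v1.5-MIN6 and 10.0% in NF-MIN6. Its commonest exact form was 20 nt long with TruSeq and 21 nt with the other kits. miR-153-3p was mostly the exact 22-nt form with TruSeq (73.2% to 78.6%), but that form made up only 41.1% to 42.8% with v1.5 and 50.8% with NEXTflex. Of its exact reads, 33.2% to 36.4% were shorter than the reference with v1.5 and 45.0% were longer with NEXTflex.

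Some read lengths were empty in NF-MIN6. It had 0 reads of miR-153-3p at 21 nt, of miR-124-3p at 22 nt and of miR-184-3p at 20 or 21 nt, while the neighbouring lengths were filled, and both Illumina kits had reads at all of these lengths. In NF-liver, 97.2% of miR-129-5p reads were the 23-nt form with 20 matching bases and 3 untemplated ones, a form that made up 0.0135% to 0.284% of reads in the MIN6 libraries and 0 of 37 reads in TS-liver. For miR-184-3p 60 of 62 NF-liver reads (96.8%) were the 21-nt exact form, which had 5.26% of reads in TS-liver and 0 of 5277 reads in NF-MIN6. For miR-128-3p 137 of 148 reads (92.6%) were the 21-nt exact form, which had 30.6% in TS-liver. Among annotated miRNAs with 50 to 600 reads, a single form took over 90% of the reads for 14 of 36 in NF-liver and 12 of 29 in NF-MIN6, but for 2 of 59 in TS-liver. Without its commonest form in NF-liver, the level there would be 0.556 RPMM for miR-129-5p, 0.765 for miR-128-3p, 0.139 for miR-184-3p and 0.0695 for miR-9-5p and miR-124-3p. In TS-liver the levels without the same forms would be 2.24, 21.04, 4.37, 1.25 and 0 RPMM. Where these forms come from was not tested.

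**Figure D4:**
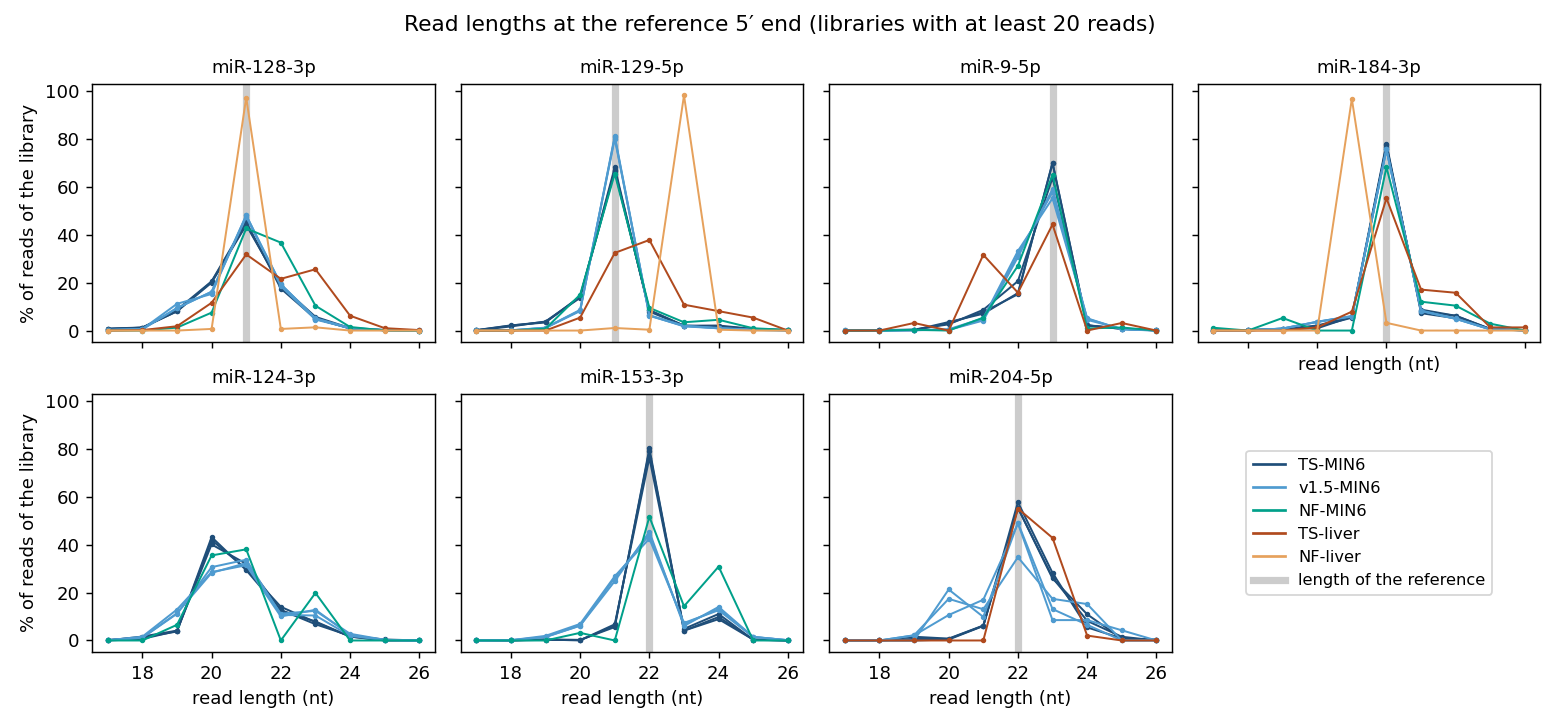
Share of reads (vertical axis, percent of the reads of 1 library at the named 5′ end) by read length in nt, 1 panel per miRNA and 1 line per library with at least 20 reads. Grey bars mark the reference length where the sequence was known. MIN6 libraries peak at the reference length where it is known, while NF-liver stands almost wholly at 1 length, 23 nt for miR-129-5p, 21 nt for miR-128-3p and 21 nt for miR-184-3p.

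The 2 copies of miR-128-3p have the same 21 bases but different ones after it, UUC in Mir128-1 on chromosome 1 and CCC in Mir128-2 on chromosome 9, so only longer reads tell them apart. Of the longer exact reads, 63.1% to 65.1% matched the chromosome 1 copy in TS-MIN6, 91.0% to 93.4% in v1.5-MIN6, 99.1% in NF-MIN6 and 95.5% in TS-liver (64 of 67 reads). A U added after cleavage cannot be told from the encoded one here, so these shares do not measure the use of the copies. Reads of at most 21 nt were divided evenly by the authors' counting. The copies of miR-129-5p and of miR-9-5p are followed by identical bases, and their reads were likewise split almost evenly.

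The opposite arm of the hairpin was rare for most of the 7, and for miR-129 it was not. That of miR-124 was not examined. miR-129-2-3p reached 701 to 770 RPMM in TS-MIN6 and 920 to 979 in v1.5-MIN6, but 94.1 in NF-MIN6. That was 61.6% to 63.4%, 49.3% to 52.7% and 10.2% of the reads assigned to that hairpin. The miR-129-5p reads were split almost evenly between both hairpins, so these shares do not measure the use of the arms. miR-129-1-3p, from the other hairpin, reached 443 to 473 RPMM in TS-MIN6, 421 to 480 in v1.5-MIN6 and 227 in NF-MIN6. In TS-liver miR-129-2-3p stood at 0.243 RPMM and miR-129-1-3p at 1.88, and in NF-liver at 0 and 0.0695, where miR-129-5p stood at 19.6. miR-153-5p reached 27.5 to 29.4 RPMM in TS-MIN6, 11.7 to 13.4 in v1.5-MIN6 and 13.5 in NF-MIN6, with 0 in both livers. miR-9-3p followed miR-9-5p across kits, with 1.05 to 1.22 RPMM per copy in TS-MIN6, 4.89 to 6.26 in v1.5-MIN6 and 36.8 in NF-MIN6. miR-128-1-5p reached 14.3 to 19.1 RPMM in TS-MIN6, miR-184-5p at most 3.21 and miR-204-3p at most 0.438 in any MIN6 library.

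Across the 9 libraries the profile of each miRNA was compared with those of the annotated miRNAs by Pearson's r of log2(RPMM + 1), as a description, since the points share libraries and the MIN6 and liver libraries form separate clusters. The profiles most like miR-129-5p were those of miR-455-3p (r = 0.994), miR-598-3p (0.979) and miR-374-5p (0.979). For miR-128-3p they were miR-329-5p (0.999), miR-130b-3p (0.990) and miR-871-3p (0.983), and for miR-9-5p miR-325-5p (0.994), miR-146b-5p (0.994) and miR-324-5p (0.989). miR-124-3p was closest to miR-384-5p (0.998), miR-376c-3p (0.996) and miR-184-3p (0.995), and miR-184-3p to miR-376c-3p (0.997), miR-124-3p (0.995) and miR-582-5p (0.995). miR-153-3p was closest to miR-7a-2-3p (0.999), miR-488-3p (0.999) and miR-24-2-5p (0.996). miR-204-5p was closest to miR-22-3p (0.991), miR-27b-3p (0.962) and miR-423-3p (0.946). Among the 7 themselves, r lay between 0.82 and 0.995 for pairs without miR-204-5p and between 0.25 and 0.56 for pairs with it.

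A list of 18 other miRNAs known from neurons or endocrine cells was set beside them, of which 13 were in the tables. In edgeR all 13 were higher in TS-MIN6 than in TS-liver, with a median log2 difference of 7.69, and all 13 were over 10-fold higher with NEXTflex, where 69.1% and 50.3% of all features were. The largest of these TruSeq differences as fitted were 12.33 for miR-7b-5p, 12.09 for miR-375-3p, 11.70 for miR-384-5p and 9.92 for miR-138-5p. In TS-liver miR-7b-5p stood at 0.0606 RPMM and miR-384-5p at 0.121, both under the level of 3 reads (0.182). The order of these differences is therefore not secure. All of the 13 but miR-182-5p and miR-7a-5p are named in the MIN6 table only, and nothing is read from their direction or their median. From TruSeq to v1.5 in MIN6, 7 of the 13 rose and 6 fell (48.9% and 37.2% of all features), and from TruSeq to NEXTflex 3 rose and 10 fell (43.1% and 47.9%). The extremes of the latter were miR-7a-5p (+8.11) and miR-7b-5p (+7.18), both of the miR-7 family, and miR-183-5p (-5.15) and miR-138-5p (-3.63). miR-7a-5p stood at 782 to 1015 RPMM in TS-MIN6 and at 248933 in NF-MIN6, a larger change between these kits than in any of the 6 named miRNAs.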

How the data were processed

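Small RNA-seq alignments of 9 libraries (7 MIN6, 2 liver) were used. The authors trimmed adapters of the Illumina libraries with cutadapt, cut the random bases from both ends of NEXTflex reads, and aligned reads to mm9 with Bowtie (versions not given in the sources used here), and deposited expected counts per alignment, a read with several equal alignments being divided evenly. Counts that shared a 5′ end were added up and set relative to the study's numbers of mapped reads. The counts summed to 0.264% to 8.41% more than those reads, for a reason not found. 5′ ends were named where their values equalled the study's tables (relative tolerance 3e-05), copies were merged, and annotation came from GENCODE M21 and RefSeq (GRCm38.p6). Rounded counts were tested with edgeR 4.0.16 in R 4.3.3 (quasi-likelihood, 5 groups, offset by mapped reads, 376 features, adjusted p under 0.05), with DESeq2 1.42.0 as an alternative. Single libraries were compared by ratios (1 RPMM added where a 10-fold limit was applied). On simulated data edgeR recovered 98% of 2-fold changes for MIN6 over liver with TruSeq and 100% for v1.5 over TruSeq. There were 5 and 3 false calls among 176 unchanged features. Every simulated library had TS-MIN6 levels with 5 RPMM added and the spread of the fit, so low liver counts were not covered. The difference between kits of the MIN6-liver contrast was not simulated. Replicates differed beyond sampling noise (chi-square per degree of freedom 29.4 to 102) and were all kept. The miRNAs and lists were chosen with earlier results of these data known. All 7 were named, with the 3 nearest profiles of each, the listed opposite arms, up to 4 extremes of the other list and miR-122-5p and miR-375-3p as tissue checks. The values of miR-7a-5p and of the marker lists' leading members were named after they were seen. The difference between kits of the MIN6-liver contrast, and each miRNA without its commonest NF-liver form, were added after the data had been seen.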

Additional observations from a re-analysis of the deposited data

Results flagged for a closer look

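For 4 miRNAs edgeR's quasi-likelihood fit called the difference between MIN6 and liver as itself differing between the NEXTflex and the TruSeq libraries. NF-MIN6 and both livers are single libraries, assumed in that fit to vary like the replicated MIN6 libraries. These calls thus do not measure any spread between NEXTflex or between liver libraries. NEXTflex minus TruSeq was 4.91 (log2) for miR-9-5p and 2.54 for miR-128-3p, which were further apart with NEXTflex, and -2.20 for miR-129-5p and -1.43 for miR-184-3p, which were closer together. Of all 376 features 50.5% were called with a positive value and 13.3% with a negative one. These are shares of sign, as a positive value can mean a smaller difference for features higher in liver. The median over all features was 1.19, and 2.07 with TMM factors. With exact matches only the value of miR-129-5p turned to 3.00 (adjusted p = 1.10e-04 in edgeR), and with TMM factors miR-184-3p was no longer called (adjusted p = 0.0626 in edgeR). The single liver library of each kit held 31.6 and 7 reads of miR-9-5p, 500 and 148 of miR-128-3p, 37 and 282 of miR-129-5p and 76 and 62 of miR-184-3p (TruSeq and NEXTflex), so each value rests on 1 library per kit on the liver side. For miR-129-5p, miR-128-3p and miR-184-3p, 1 form made up 97.2%, 92.6% and 96.8% of the NEXTflex liver reads. Removing these forms from all libraries moves the difference upwards by construction, since they were picked for their share in NEXTflex liver. It was then 2.91 for miR-129-5p, 3.44 for miR-184-3p and 5.79 for miR-128-3p, on 8, 2 and 11 NEXTflex liver reads. No group held the 4 libraries needed to look for a library far from the others.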

How the results depend on the processing

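Total calls of the 5 tested comparisons moved by over 1.5 times only with the set of features tested. Among all 5′ ends of at least 10 RPMM the calls were 8271 for MIN6 over liver with TruSeq (363 in the reported fit), 6149 for v1.5 over TruSeq (324), 8150 for NEXTflex over TruSeq (342), 8312 for NEXTflex over v1.5 (333) and 3936 for the difference between kits (240), and among features of at least 500 RPMM they were 158, 151, 149, 151 and 113, as more or fewer features were tested. The count of features over 10-fold between the livers (68) became 124 with 0.1 RPMM added, 43 with 5 RPMM and 40 with starts within 5 nt summed. Leaving out each MIN6 replicate in turn gave 360 to 363, 311 to 323, 337 to 343, 328 to 336 and 239 to 242 calls. Scaling moved the splits into higher and lower: with TMM factors to 199 and 152 for MIN6 over liver (260 and 103 reported) and to 237 and 22 for the difference between kits (190 and 50), and with DESeq2's size factors to 149 and 187 for v1.5 over TruSeq (184 and 140) and to 148 and 78 for the difference.

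Values of the 6 miRNAs kept direction and call in 90 of 90 for MIN6 over liver with TruSeq, 90 of 90 for NEXTflex over TruSeq, 88 of 90 for NEXTflex over v1.5, 91 of 96 for v1.5 over TruSeq and 87 of 96 for the difference between kits. Ratios of single libraries stayed within their counting intervals in 20 of 35 for MIN6 over liver with NEXTflex and 26 of 35 for NEXTflex over TruSeq in liver, where the others moved. Among those for MIN6 over liver with NEXTflex (log2 with 1 RPMM added) were moves from 6.34 to 10.03 with exact matches only and 10.06 without the commonest NF-liver form for miR-129-5p, and from 5.29 to 7.51 without that form for miR-184-3p. Direction turned for miR-129-5p in NEXTflex over v1.5 with TMM factors (0.34, adjusted p = 2.52e-04 in edgeR), in the difference between kits with exact matches only (3.00) or without its commonest form in NF-liver (2.91), and between the livers with exact matches only (-0.79) or without that form (-1.06), since that form is not exact. Without its own commonest form miR-184-3p turned in the difference between kits as well (3.44), on 2 reads and by construction, as that form was picked for its share in NF-liver. Direction also turned for miR-184-3p between the livers with exact matches only (0.56). All 62 NF-liver reads and 43 of the 76 TS-liver reads were exact, and why these shares differ was not tested. It turned as well with the sum of counts as divisor (0.013). That sum exceeded the mapped reads by 8.41% in TS-liver and 0.264% in NF-liver. miR-124-3p was called in the difference between kits under 5 settings (adjusted p 0.0232 to 0.0475 in edgeR or DESeq2) on 3 liver reads. The same numbers in the labels of TS-MIN6 and v1.5-MIN6 were checked as pairs. Deviations of same-numbered libraries correlated at 0.289, 0.019 and 0.336, and those of differently numbered ones at -0.335 to 0.0996. The numbers were treated as numbers only, which does not exclude pairing. With the replicate block v1.5 over TruSeq had 328 calls, and miR-153-3p was called (-0.14, adjusted p = 0.0497 in edgeR), while no call of the other 5 named miRNAs changed. Depth limits the liver values of miR-9-5p, miR-124-3p and miR-153-3p, with at most 31.6 reads each.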
